A study of Cricetulus griseus with 5 samples.

Results

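The catalytic and regulatory subunits of the serine/threonine phosphatases PP1 to PP6 were followed on 5 microarrays that carried RNA of the Chinese hamster line A23 in both channels. Members were the probes whose only gene symbol begins with Ppp1 to Ppp6 followed by c (catalytic) or r (regulatory), as the array platform's annotation gives it. This took 80 of the 20868 probes, for 72 of 16504 named genes: 11 catalytic probes for 11 genes and 69 regulatory probes for 61 genes. By class there were 43 probes of PP1, 18 of PP2A, 5 of calcineurin (PP3), 8 of PP4, 1 of PP5 and 5 of PP6. The platform's symbols are those of mouse genes. In a table of hamster genes (RefSeq, assembly CriGri-PICRH-1.0) 61 of the 72 symbols were found and 11 were not. The catalytic Ppp3ca and Ppp5c were among those not found. Only symbols and listed synonyms were matched, so a symbol not found does not show that hamster lacks the gene.

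These enzymes remove phosphate from serine and threonine. A small set of catalytic subunits, close in sequence within a class, is shared among a large set of regulatory subunits, which bring the enzyme to glycogen, myosin, the centromere, the ribosome or other places, or inhibit it. PP1 works mostly as a catalytic subunit with a single partner, PP2A as a trimer of catalytic, scaffold and B-type subunits, and calcineurin as a calcium-dependent pair of catalytic and B subunits.

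A23 is a fibroblast line that lacks thymidine kinase and serves as the recipient cell in radiation hybrid panels. All 5 arrays belong to 1 group, replicates 1 to 5, with untreated A23 RNA labelled with Cy5 in channel 1 and with Cy3 in channel 2, always the same way round. The series was made as a control for the power to detect cis ceQTLs, effects of a gene's own locus on its expression in hybrids. Nothing in the labels tells separate cultures from repeated hybridisations of 1 extract, so the spread behind each p-value may be technical. The deposited values are log ratios of the channels and hold no signal level, so the fibroblast identity of the cells cannot be checked against marker genes, and levels of different subunits cannot be compared. Neither the log base nor the numerator channel is stated. Folds below hold under a log10 reading, signs are those of the deposited value, and a ratio of 0 is what the same RNA in both channels implies. Both channels held A23 RNA, so a ratio away from 0 does not compare 2 kinds of sample. The dyes were never swapped, so a dye effect of a probe cannot be told apart from other sources of a steady ratio. The cause of such ratios was not tested. Over all probes the SD within an array was 0.119 to 0.127 on 4 arrays and 0.174 on replicate 2, the widest array, and 6.43% to 20.8% of an array's values were listed at exactly 0.

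Most phosphatase subunits stayed close to a ratio of 0, and a single probe for the PP2A regulatory subunit Ppp2r5e stood far below it. In limma's moderated test against 0, with Benjamini-Hochberg adjustment over all 20868 probes, 3 of the 80 subunit probes passed an adjusted p of 0.05, against 3.42% of all probes, and this share of 3.75% is near the background. Ppp1r13b was positive (1.41% of all probes were called with a positive ratio), and Ppp2r5e and Ppp1r1b were negative (2% of all probes). All 3 were regulatory, and 0 of the 11 catalytic probes passed. Of those 11, 6 (54.5%) had an unadjusted p under 0.05 in limma, beside 27.3% of all probes. Over the members, 27 probes had an unadjusted p under 0.05, 17 with a positive and 10 with a negative mean, which is 33.8% against 27.3% of all probes. Ratios of 1 sign on all 5 arrays were seen for 28 members, 17 positive and 11 negative, or 35% against 26.4% of all probes. Only feature 5206 of Ppp2r5e, 1 of the 80, had a mean beyond 2-fold if log10, beside 0.954% of all probes. The median of the 80 mean ratios was 0.00548, beside 0.00187 over all probes.

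How many members were called moved with the treatment of the arrays, together with the share of all probes. Scaling the arrays gave 5 of 80, Ppp1r13b, Ppp1r1a, Ppp2r5d, Ppp2r5e and Ppp4r3b, with 4.58% of all probes called. Array weights gave 9 of 80 beside 7.58%, robust regression 20 of 80 beside 19.4%, and probes with no exact zero 4 of 69 beside 8.54%. Fewer members were called after quantile normalization (2 of 80 beside 2.53%), with robust empirical Bayes (2 of 80 beside 1.2%), with exact zeros as missing (2 of 79 beside 1.63%) and against a minimum of 1.2-fold (1 of 80 beside 0.249%). With a single array left out, 1 of 80 was called without replicate 1 (0.115%), replicate 4 (0.0383%) or replicate 5 (0.302%), and 0 without replicate 2 (0.0192%; 21 at an unadjusted limma p under 0.05) or replicate 3 (0.024%; 22). The member that remained was feature 5206 of Ppp2r5e each time.

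Catalytic subunits lay close together, with small positive ratios for most. The median over the 11 probes was 0.0314 (1 probe per gene), and 8 means were positive and 3 negative, while the 69 regulatory probes had a median of 0.00458 with 38 positive and 30 negative. The share of positive means was 72.7% for catalytic, 55.1% for regulatory and 51.3% for all probes. The catalytic median was positive on each array, at 0.0253, 0.0252, 0.0235, 0.0448 and 0.0285 on replicates 1 to 5. On each array it was above the regulatory median, by 0.0162 on replicate 1 and by 0.0506 on replicate 4, the lowest and the highest difference. These medians describe genes chosen by name and carry no test, and 5 arrays could not give an exact two-sided p below 0.0625.

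Among the PP1 catalytic subunits, Ppp1ca gave 0.0253, 0.0206, 0.0217, 0.0448 and 0.027 on replicates 1 to 5, a mean of 0.0279 ± 0.00983 (SD, n = 5; limma adjusted p = 0.099). All arrays were above 0, and replicate 4 stood apart from the other 4. Ppp1cb had 0.0288 ± 0.0318 and Ppp1cc -0.0243 ± 0.0371 (SD, n = 5 each), and the spread of both was larger than the mean. Ppp1cb was highest on replicate 4, at 0.0831, while Ppp1cc was at -0.0476 there, so these isoforms did not move together across arrays.

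Both PP2A catalytic subunits had negative means. Ppp2ca gave -0.0201, -0.013, -0.0312, -0.027 and -0.0147, all below 0 and within a narrow range (mean -0.0212 ± 0.00781, SD, n = 5; limma adjusted p = 0.14). Ppp2cb, the second isoform, was at -0.0424, -0.043, -0.0265 and -0.0105 on replicates 1 to 4 and at 0.0599 on replicate 5, so its sign was not settled (mean -0.0125 ± 0.0426, SD, n = 5).

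The catalytic subunits of calcineurin, PP4, PP5 and PP6 all had positive means. Ppp3cc, the calcineurin isoform known for its high level in testis, gave 0.0617, 0.177, 0.0293, 0.0809 and 0.0688, with replicate 2 highest (mean 0.0835 ± 0.0555, SD, n = 5; limma adjusted p = 0.106). Ppp3ca (0.0344 ± 0.0402) and Ppp3cb (0.0314 ± 0.0768, SD, n = 5 each) each had 1 negative array, replicate 5 for Ppp3ca and replicate 4 for Ppp3cb. Ppp3cb had the largest spread of the 11 and the only SD above the median of all probes (0.0588). Ppp4c gave 0.0529, 0.0615, 0.0747, 0.115 and 0.0285 (mean 0.0666 ± 0.0321, SD, n = 5; limma adjusted p = 0.0717). Ppp6c gave 0.0277, 0.0482, 0.0316, 0.0768 and 0.0629 (mean 0.0494 ± 0.0208, SD, n = 5; limma adjusted p = 0.0703). Ppp5c, whose product carries its own tetratricopeptide repeats and binds the chaperone Hsp90, had 0.0448 ± 0.0272 (SD, n = 5; limma adjusted p = 0.109). Ppp4c, Ppp5c and Ppp6c were above 0 on every array and highest on replicate 4, and none of the 3 passed the threshold.

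**Figure D1:**
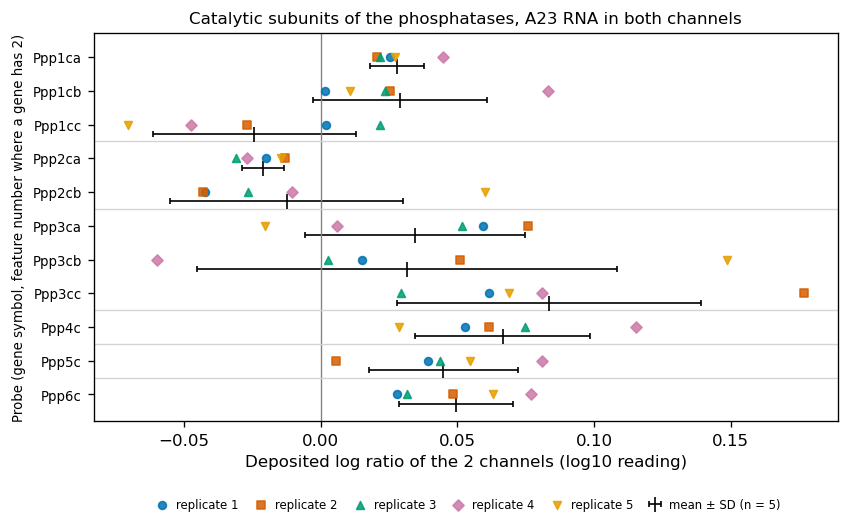
Log ratios of the 11 catalytic subunit probes on the 5 arrays (points, 1 marker per replicate) with mean ± SD (black bars, n = 5), against a ratio of 0 (grey line). The 6 genes with all 5 points to the right of 0 are Ppp1ca, Ppp1cb, Ppp3cc, Ppp4c, Ppp5c and Ppp6c, and Ppp2ca has all 5 to the left.

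In PP2A the scaffold and most B-type subunits were near 0, and Ppp2r5e gave opposite pictures from its 2 probes. Ppp2r5e encodes the epsilon member of the B' (B56) family, which directs PP2A to substrates with a short recognition motif. Its probe at feature 5206 read -1.41, -1.29, -1.57, -1.72 and -1.49 on replicates 1 to 5 (mean -1.5 ± 0.163, SD, n = 5; limma adjusted p = 0.00696), 31.4-fold if log10 and 2.82-fold if log2. Its probe at feature 14169 read 0.0499, -0.0295, 0.0677, 0.0047 and -0.0649 (mean 0.00559 ± 0.0548, SD, n = 5; limma adjusted p = 0.897), on both sides of 0.

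The probes of Ppp2r5e did not overlap on any array, and they differed by -1.5 ± 0.183 log units, feature 5206 minus feature 14169 (SD, n = 5). Among the 1037 genes of the whole table with 2 probes, Ppp2r5e was the only 1 whose probe means differed by over 1 log unit. Feature 5206 was the lowest of all 20868 probes on replicates 1, 3 and 4, the 2nd lowest on replicate 5 and the 5th lowest on replicate 2, and it had the lowest mean. Averaging the probes gave -0.746 for the gene, a value that neither probe showed, and the gene was still called (limma adjusted p = 0.00477; 2.45% of all genes were called). The call for feature 5206 was lost without replicate 2 (limma adjusted p = 0.0516, mean -1.55) and without replicate 3 (0.0666, mean -1.48). Which transcripts the probes match was not analysed here.

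The means of the other B' subunits lay between -0.041 and 0.0505. Ppp2r5d gave 0.0377, 0.0446, 0.0353, 0.0737 and 0.0613, all positive (mean 0.0505 ± 0.0165, SD, n = 5), and just missed the threshold (limma adjusted p = 0.057). Ppp2r5b was negative on every array, from -0.0999 to -0.0049, with a mean of -0.041 ± 0.0371 (SD, n = 5). Ppp2r5a (0.00537 ± 0.0355) and Ppp2r5c (-0.0312 ± 0.0286, SD, n = 5 each) had arrays of both signs. The family's sign was therefore mixed, with 3 positive and 3 negative probes.

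The scaffold subunits, which hold the catalytic and B-type subunits together, differed in sign. Ppp2r1a, the main scaffold isoform, gave 0.0132, 0.0208, 0.0196, 0.00571 and 0.00736 (mean 0.0133 ± 0.00687, SD, n = 5; limma adjusted p = 0.273), the smallest spread above 0 of all members. Ppp2r1b gave -0.0703, -0.0545, -0.0225, -0.00575 and -0.0781 (mean -0.0462 ± 0.0311, SD, n = 5; limma adjusted p = 0.121). The 2 isoforms did not overlap, but neither passed against 0.

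Of the B (B55) family, which holds the subunits that act at mitotic exit, Ppp2r2a (0.007 ± 0.0152) and Ppp2r2d (0.00122 ± 0.0175, SD, n = 5 each) were at 0 within their spread. Ppp2r2c was negative on every array (-0.0401 ± 0.0213, SD, n = 5; limma adjusted p = 0.0987), while Ppp2r2b ran from -0.124 on replicate 1 to 0.178 on replicate 2. Both of these are known mainly from brain. The B'' family, calcium-binding subunits, had the highest median SD of the PP2A families, at 0.123 over 4 probes, though feature 5206 of Ppp2r5e (0.163) and Ppp2r2b (0.123) were each wider than some of its members. For Ppp2r3a, feature 12206 was listed at 0 on replicates 2, 3 and 5 and read 0.221 on replicate 1 and -0.284 on replicate 4. Its other probe, feature 13788, read 0.196, 0.372, 0.0543, -0.0264 and 0.102 (mean 0.140 ± 0.153, SD, n = 5). These probes shared the sign on replicates 1 and 4 alone. Ppp2r3c (0.000121 ± 0.0503) and Ppp2r3d (0.0637 ± 0.0924, SD, n = 5 each) had both signs.

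**Figure D2:**
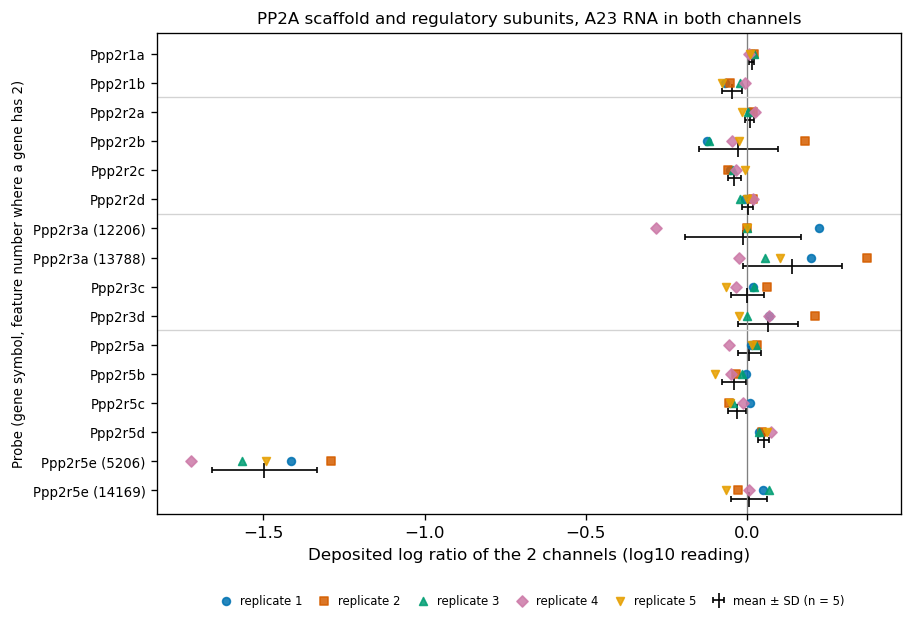
Log ratios of the 16 PP2A scaffold and regulatory probes on the 5 arrays (points, 1 marker per replicate) with mean ± SD (black bars, n = 5); grey lines separate the scaffold, B, B'' and B' families. Feature 5206 of Ppp2r5e lies between -1.72 and -1.29, and no other probe is below -0.284.

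PP1 regulatory subunits made up 40 of the 80 probes, and 1 passed in each direction. Ppp1r13b (ASPP1), a partner of p53 that also binds PP1, gave 0.105, 0.0914, 0.103, 0.064 and 0.0936, all well above 0 and in a narrow range (mean 0.0915 ± 0.0165, SD, n = 5; limma adjusted p = 0.027), 1.23-fold if log10. Without any 1 of replicates 1 to 5 this call was lost (limma adjusted p = 0.0709 to 0.128), while the mean stayed at 0.088 to 0.0984. It was also lost after quantile normalization (0.0503) and against a minimum of 1.2-fold. Ppp1r1b (DARPP-32), a PP1 inhibitor known from dopamine-responsive neurons, gave -0.15, -0.0539, -0.125, -0.0831 and -0.132 (mean -0.109 ± 0.0393, SD, n = 5; limma adjusted p = 0.0496), 1.28-fold if log10. It was the member closest to the threshold from inside, and its call was lost without any single array (limma adjusted p = 0.0873 to 0.151), while the mean stayed at -0.123 to -0.0985. Its limma adjusted p was also above the threshold after scaling (0.059), after quantile normalization (0.0596), with robust empirical Bayes (0.0632), with exact zeros as missing (0.0569), with genes as unit (0.0501) and against a minimum of 1.2-fold (1). Its paralogue Ppp1r1a (inhibitor-1) was the closest from outside, at -0.0345, -0.0433, -0.036, -0.0486 and -0.0569 (mean -0.0439 ± 0.00924, SD, n = 5; limma adjusted p = 0.0503). The third of these inhibitors, Ppp1r1c, was positive on 4 arrays, with 0.335 on replicate 2, and listed at 0 on replicate 3.

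The glycogen-targeting subunits, which bring PP1 to glycogen particles and promote glycogen synthesis, spread the most. Their 7 probes had a median SD of 0.141, against 0.0427 over the other 62 regulatory probes. Exact zeros were held by 3 of the 7, by 12.9% of those 62 and by 25.7% of all probes. The zeros enter these SDs, and their part in the spread was not tested. Ppp1r3d read 0, 0.847, 0, 0.213 and 0.0514 on replicates 1 to 5, so a single array set its mean. Ppp1r3c read 0.0486, 0, 0.49, 0.0858 and 0, and Ppp1r3e 0, 0, 0.325, 0.0823 and 0. The high array was replicate 2 for Ppp1r3d and replicate 3 for Ppp1r3c and Ppp1r3e. Ppp1r3b had no zeros and still ran from -0.26 on replicate 4 to 0.203 on replicate 2 (mean 0.00275 ± 0.172, SD, n = 5). Ppp1r3a, the muscle glycogen subunit, was narrow at 0.0052 ± 0.0285, as was Ppp1r3g at -0.00805 ± 0.0333, and Ppp1r3f gave 0.052 ± 0.089 (SD, n = 5 each). None of the 7 had 1 sign on all 5 arrays, beside 26.4% of all probes. An unadjusted p under 0.05 in limma was reached by 0 of the 7, beside 27.3% of all probes.

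Myosin phosphatase targeting subunits were tight by comparison. Ppp1r12a (MYPT1), which directs PP1 to myosin light chain, gave 0.0131, 0.0264, 0.0308, 0.0697 and 0.0539, all positive (mean 0.0388 ± 0.0227, SD, n = 5; limma adjusted p = 0.11). Ppp1r12c gave 0.0247 ± 0.00987 (SD, n = 5), also positive on every array. The related Ppp1r16a (-0.00202 ± 0.0202) and Ppp1r16b (-0.00626 ± 0.0694, SD, n = 5 each) had both signs, with Ppp1r16b lowest at -0.123 on replicate 1.

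The Ppp1r14 inhibitors, small proteins that block PP1 when phosphorylated by protein kinase C, went both ways. Ppp1r14b was positive on all arrays (0.0599 ± 0.026, SD, n = 5; limma adjusted p = 0.0663), with 0.104 on replicate 4 and 0.0408 to 0.0633 on the others. Ppp1r14c was negative on all arrays by both of its probes, at -0.061 ± 0.045 and -0.056 ± 0.0227 (SD, n = 5 each; limma adjusted p = 0.129 and 0.0644). Ppp1r14a (CPI-17), known from smooth muscle, reached 0.237 on replicate 5 and was at -0.0276 on replicate 3 (mean 0.116 ± 0.102, SD, n = 5). Ppp1r14d had 0.0737 on replicate 2 and negative values elsewhere (mean -0.080 ± 0.103, SD, n = 5), and Ppp1r14bl was listed at 0 on 3 arrays and read 0.105 on replicate 2 and 0.318 on replicate 4.

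Other inhibitors had no settled sign, and Ppp1r2 was spread widely (mean -0.0422 ± 0.167, SD, n = 5). Ppp1r11 (inhibitor-3) gave -0.0134 ± 0.0105 (SD, n = 5), and Ppp1r2 (inhibitor-2) ran from -0.303 on replicate 2 to 0.162 on replicate 3 with an exact 0 on replicate 5. The pseudogene Ppp1r2-ps7 gave -0.00519 ± 0.0208 (SD, n = 5). Among regulators that hold PP1 in the nucleus or at kinetochores, Ppp1r7 (SDS22) gave 0.144, 0.189, 0.0882, 0.0776 and 0.361, the largest mean of 1 sign among positive members (0.172 ± 0.115, SD, n = 5; limma adjusted p = 0.102). Replicate 5 was the highest array. Ppp1r8 (NIPP1) gave -0.0151 ± 0.0421 (SD, n = 5).

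The subunits that direct PP1 to the translation factor eIF2 alpha differed in the sign of their means. Ppp1r15b (CReP), the constitutive one, was positive on every array, at 0.0938, 0.0333, 0.0174, 0.111 and 0.0595 (mean 0.0631 ± 0.0396, SD, n = 5; limma adjusted p = 0.102), and Ppp1r15a (GADD34), the stress-induced one, gave -0.0166 ± 0.0192 (SD, n = 5). Their arrays did not overlap, with the highest of Ppp1r15a at 0.0123 and the lowest of Ppp1r15b at 0.0174. Neither passed against 0 (limma adjusted p = 0.329 for Ppp1r15a), and no test compared the 2 genes. The actin-bound scaffolds neurabin (Ppp1r9a) and spinophilin (Ppp1r9b) had 2 probes each. Both spinophilin probes were positive on 4 arrays, at 0.0306 ± 0.0527 and 0.027 ± 0.0345 (SD, n = 5 each), but the negative array was replicate 5 for the first and replicate 4 for the second. Both neurabin probes held exact zeros, on replicates 2 and 5 for feature 2278 and on replicates 2, 3 and 5 for feature 8123.

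Of the remaining PP1 partners, Ppp1r18 (phostensin) was negative on every array at -0.0198 ± 0.0111 and Ppp1r37 positive on every array at 0.0299 ± 0.0293 (SD, n = 5 each). Ppp1r21 at -0.0647 ± 0.0613, Ppp1r27 at -0.0504 ± 0.0563 and Ppp1r17 at -0.0364 ± 0.0432 (SD, n = 5 each) were negative on 4 of 5 arrays. Ppp1r32 (-0.00734 ± 0.0253), Ppp1r35 (0.0372 ± 0.0831) and Ppp1r42 (0.0318 ± 0.0887, SD, n = 5 each) had no settled sign, and both Ppp1r35 and Ppp1r42 were highest on replicate 5.

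**Figure D3:**
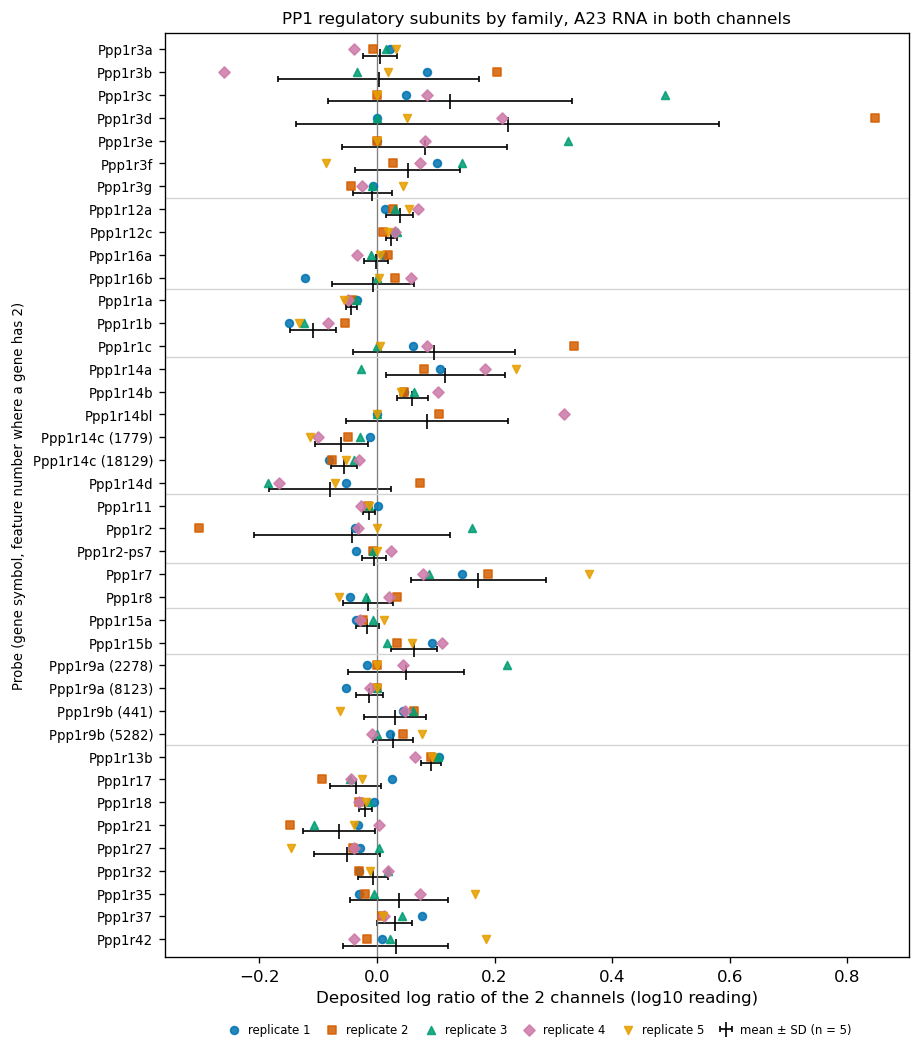
Log ratios of the 40 PP1 regulatory probes on the 5 arrays (points, 1 marker per replicate) with mean ± SD (black bars, n = 5); grey lines separate families, from glycogen-targeting subunits at the top to other partners at the bottom. Single arrays of Ppp1r3d (0.847) and Ppp1r3c (0.49) lie far to the right, while Ppp1r13b, Ppp1r1a and Ppp1r12c are tight.

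The regulatory subunits of PP4 were mostly positive, and none passed. Ppp4r3b, which guides PP4 to its substrates, gave 0.113, 0.217, 0.0811, 0.141 and 0.0981, all positive (mean 0.130 ± 0.0532, SD, n = 5; limma adjusted p = 0.0525), 1.35-fold if log10. Ppp4r2 gave 0.0437 ± 0.0389, with replicate 5 alone below 0, and Ppp4r4 0.0596 ± 0.0804, with replicate 3 below 0 (SD, n = 5 each). The probes of Ppp4r1 disagreed: feature 19977 was positive on every array (0.0336 ± 0.0279, SD, n = 5), while feature 15843 was listed at 0 on replicates 1, 3 and 5 and read -0.263 and -0.296 on replicates 2 and 4. The probes of the pseudogene Ppp4r1l-ps gave 0.093 ± 0.154 and -0.0036 ± 0.0223 (SD, n = 5 each). Over the 8 PP4 probes, the catalytic one included, the median was 0.0517, the highest of the classes with over 1 probe. Of their means 6 were positive and 2 negative, a positive share of 75% beside 51.3% of all probes.

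Calcineurin B and PP6 subunits showed no settled direction. Ppp3r1, the widely expressed calcineurin B subunit, was listed at exactly 0 on all 5 arrays, as were 412 of all probes, so it gives no measured ratio here. Ppp3r2, its testis form, had -0.065, -0.0169, -0.0611, -0.229 and 0.03 (mean -0.0683 ± 0.0976, SD, n = 5). Among PP6 subunits Ppp6r2 was negative on every array, at -0.0183, -0.0367, -0.0133, -0.12 and -0.147 (mean -0.0669 ± 0.0618, SD, n = 5; limma adjusted p = 0.178). Ppp6r3 ran from -0.0945 on replicate 5 to 0.159 on replicate 3. The probes of Ppp6r1 were both positive on average, at 0.025 ± 0.0709 and 0.0546 ± 0.0498 (SD, n = 5 each), the first of them through replicate 5 at 0.15.

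**Figure D4:**
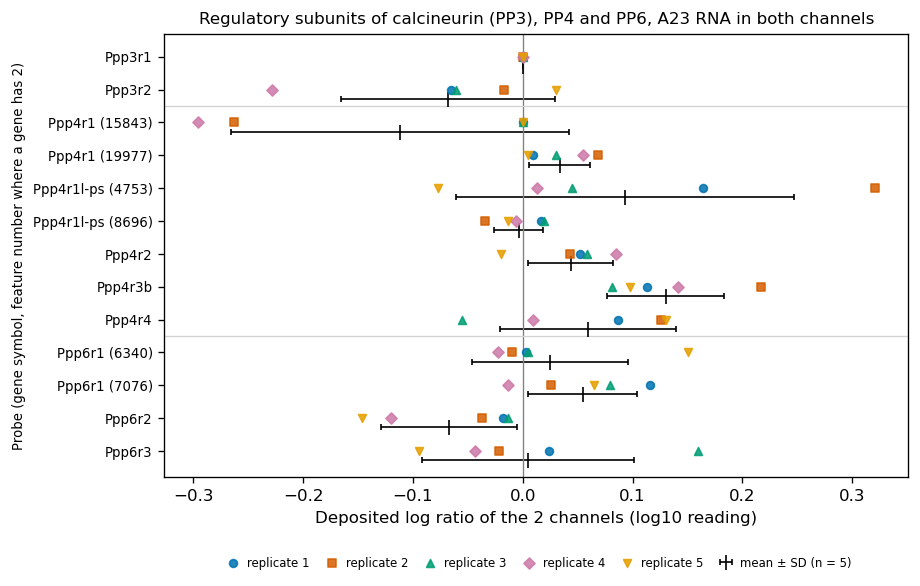
Log ratios of the 13 regulatory probes of calcineurin, PP4 and PP6 on the 5 arrays (points, 1 marker per replicate) with mean ± SD (black bars, n = 5); grey lines separate the classes. All points of Ppp4r3b lie between 0.0811 and 0.217, and all points of Ppp3r1 are at 0.

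Of the 8 member genes with 2 probes, 5 had probe means of opposite sign, Ppp1r9a, Ppp2r3a, Ppp2r5e, Ppp4r1 and Ppp4r1l-ps, which is 62.5% beside 44% of the 1037 genes with 2 probes. The median difference between the 2 probe means was 0.0796 for members and 0.0647 for all such genes. Apart from Ppp2r5e, these differences were no larger than their SD over arrays. At the level of genes, 2 of 72 passed, Ppp2r5e and Ppp1r13b, which is 2.78% beside 2.45% of all genes.

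Arrays differed less for the phosphatase probes than for the typical probe. The median between-array SD was 0.0411 over the 80 members and 0.0588 over all probes, and 51 of the 80 were below the latter. It was 0.0321 for catalytic probes, 10 of 11 of them below the median of all probes, and 0.045 for regulatory probes, with 41 of 69 below it. Exact zeros made up 0 of 55 catalytic values and 28 of 345 regulatory values (8.12%), beside 11.5% over all probes. The 11 probes with a zero, 13.8% of the members beside 25.7% of all probes, were all regulatory. In terms of power, a smallest detectable fold for 5 such arrays was computed (two-sided, unadjusted alpha 0.05, power 0.8, log10 reading). It used each probe's own SD and not limma's moderated one, so it does not give what the limma fit would detect. Its median was 1.13 for catalytic, 1.19 for regulatory and 1.26 for all probes. It was 1.03 for Ppp2ca and Ppp2r1a, 1.88 for feature 5206 of Ppp2r5e and 4.03 for Ppp1r3d. The observed fold of Ppp2r1a, 1.031, was above its computed 1.027, yet its unadjusted limma p was 0.108.

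**Figure D5:**
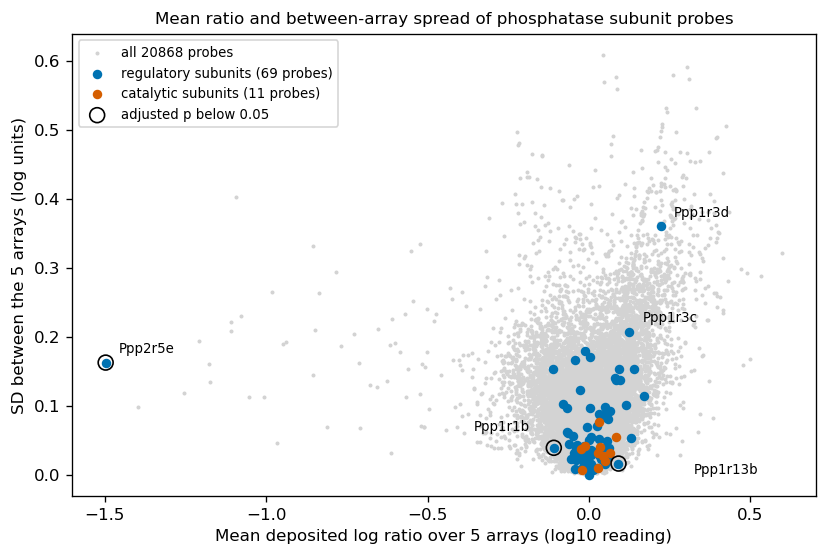
Mean log ratio over the 5 arrays (x axis) against the SD between arrays (y axis, log units) for 20868 probes (grey), 69 regulatory (blue) and 11 catalytic (orange) probes; circles mark the 3 members with an adjusted p below 0.05. Catalytic probes sit low and close to 0, Ppp2r5e far to the left at -1.5, and Ppp1r3d highest of the members with an SD of 0.36.

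Pearson's correlation between arrays over the members was higher with that single Ppp2r5e probe than without it, while rank correlation was about the same. Across the 80 probes, which share arrays and labelling, Pearson's r between pairs of arrays had a median of 0.839 over 10 pairs (0.653 to 0.896). Without feature 5206 the median was 0.304 over 79 probes (-0.00607 to 0.389), beside 0.368 over all probes. Spearman's rho, which weighs ranks, had a median of 0.412 with that probe, 0.389 without it and 0.385 over all probes.

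Partners of the same phosphatases whose symbols do not follow the pattern were described as a further list. Of 74 symbols, 54 genes were found on the array with 63 probes, and 3 probes passed in limma, all negative, which is 4.76% beside 3.42% of all probes called in either direction and 2% called negative. An unadjusted p under 0.05 was reached by 26 of the 63, or 41.3% beside 27.3% of all probes. The median of their means was -0.00467, with 27 positive and 35 negative. Chp1, a calcineurin B homologous protein that inhibits calcineurin, read -0.726, -0.799, -0.78, -0.913 and -0.834 (mean -0.810 ± 0.0694, SD, n = 5; limma adjusted p = 0.00525), 6.46-fold if log10. Slmap, a membrane-anchored member of the STRIPAK complex of PP2A, was negative by both probes, at -0.305 ± 0.0422 for feature 19499 (SD, n = 5; limma adjusted p = 0.0124) and at -0.101 ± 0.044 for feature 5538 (SD, n = 5; limma adjusted p = 0.059). Ensa, which inhibits PP2A-B55 in mitosis when phosphorylated, read -0.131, -0.129, -0.119, -0.122 and -0.183 (mean -0.137 ± 0.0262, SD, n = 5; limma adjusted p = 0.0219).

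With 4 arrays few probes of any kind were called (0.0192% to 0.302% of all), and the means of these 3 moved little, from -0.831 to -0.785 for Chp1, from -0.141 to -0.125 for Ensa and from -0.316 to -0.29 for Slmap. The call of Chp1 was lost without replicate 2 or replicate 3 (limma adjusted p = 0.0182 to 0.0664 with each array left out). That of Ensa was lost without any 1 of replicates 1 to 4 (0.0395 to 0.118), and that of Slmap without any single array (0.0512 to 0.104). Phactr4 (-0.210 ± 0.132), Rcan3 (0.175 ± 0.134) and feature 3508 of Nfatc1 (0.149 ± 0.104, SD, n = 5 each) were picked for large means of 1 sign on all arrays. They did not pass, with limma adjusted p = 0.0927, 0.127 and 0.11. The other Nfatc1 probe, feature 8691, was listed at 0 on all 5 arrays. Rcan3 is a calcineurin inhibitor, Phactr4 a PP1 and actin binding protein and Nfatc1 a transcription factor that calcineurin activates.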

How the data were processed

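Per the labels, total RNA of A23 cells was directly labelled with an Agilent protocol and hybridised on 2-colour arrays. The authors deposited 1 log ratio per probe and array, read here as log10 from its values, and no signal; the correction of background and dyes is not described in what was used here. There were 0 columns of other samples. Neither slides nor scan dates are recorded, which leaves batches untested, and the number of arrays limits the precision. Of the probes, 17786 had 1 symbol, 16 several and 3066 none.

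Values times 3.32 (log2) were fitted in limma 3.58.1 (R 4.3.3; lmFit with an intercept, eBayes, threshold 0.05) on all probes, and printed back in deposited units. The fit was tested on simulated data with normal noise at each probe's own SD and 50 probes shifted by each fold. At adjusted p 0.05 it recovered 34% of those shifted 1.5-fold, 66% at 2-fold, 86% at 4-fold and 96% at 8-fold. There were 10 false calls. The shifted probes were drawn from all probes with an SD above 0, so these shares are not the rate for a given member. A probe with a wide spread that was not called here may still have a shift of such a size.

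Members, families, partner list and tests were chosen with earlier results of these data known. Named first were all catalytic probes, probes past the threshold, the 2 largest regulatory means of each sign per class, the 5 largest and 5 smallest SDs, genes whose probes disagree in sign by over 0.1 and probes at 0 throughout; of the partners, called probes and the 5 largest means of 1 sign. The other members were named so that each is accounted for, after their values were seen. Alternatives were scaling to equal median absolute values, quantile normalization, array weights, robust fits, exact zeros as missing, probes without zeros, genes as unit, a minimum of 1.2-fold, a log2 reading and leaving out each array.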

Additional observations from a re-analysis of the deposited data

Results flagged for a closer look

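A single array stood apart from the other 4 by Dixon's criterion for 5 values in 6 of 47 results examined; chance flags about 1 in 20 groups, and 13.8% of the members and 13.9% of all probes met it. Ppp1ca had 0.0448 on replicate 4, against 0.0206 to 0.027 on the others. Ppp1r3d had 0.847 on replicate 2 and Ppp1r3c 0.49 on replicate 3, both among values that include exact zeros. Ensa had -0.183 on replicate 5. The median of the catalytic probes was 0.0448 on replicate 4, which is the value of Ppp1ca, and the median of the PP1 probes was 0.0193 on replicate 4, against 0 to 0.00162 on the others.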

How the results depend on the processing

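The count of 3 called members moved with the settings. It was 5 after scaling (3 positive, 2 negative), 2 after quantile normalization (1 and 1), 9 with array weights (5 and 4), 20 with robust regression (12 and 8), 2 with robust empirical Bayes (1 and 1), 2 with exact zeros as missing (1 and 1), 4 among probes with no exact zero (2 and 2), 2 with genes as unit (1 and 1) and 1 against a minimum of 1.2-fold (0 and 1). Leaving out single arrays left 0 to 1 (0 positive and 0 to 1 negative), with 21 to 26 members at an unadjusted p under 0.05. Feature 5206 of Ppp2r5e was called in every setting run except without replicates 2 and 3.

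The median of all members was 0.0102 after scaling, 0.0115 after quantile normalization and 0.0138 with array weights, and that of PP1 0.0162 with array weights. With single arrays left out the medians ran from 0.00271 to 0.0164 for members, 0 to 0.0152 for regulatory probes, -0.00167 to 0.0226 for PP1 and 0.00207 to 0.0415 for calcineurin, and the catalytic median SD from 0.0211 to 0.0367, lowest without replicate 4. Signs turned for uncalled probes: Ppp1r2 (0.0162 with array weights) and Ppp1r3b (-0.00534 after quantile normalization, -0.00752 with array weights). Feature 12206 of Ppp2r3a also turned (0.000878 after scaling, 0.00903 with array weights). With genes as unit the value is the mean over both probes of a gene. That mean had the opposite sign to feature 12206 of Ppp2r3a (0.0635), feature 14169 of Ppp2r5e (-0.746) and feature 19977 of Ppp4r1 (-0.0391). With single arrays left out Ppp1r2 ran from -0.0932 to 0.0231, Ppp1r3b from -0.0474 to 0.0685, feature 12206 of Ppp2r3a from -0.0711 to 0.0553 and feature 14169 of Ppp2r5e from -0.0099 to 0.0232. Apart from the averaging of probes with genes as unit, the cause of these shifts was not tested. No paired analysis was possible because there is 1 group.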
